A study of Mus musculus with 33 samples.

Results

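Microglia of the corpus callosum (CC), the white matter tract that joins the hemispheres, were compared with microglia of the cerebral cortex (Cx), a grey matter region, in mice at postnatal day 42 (P42). The 8 libraries, 4 of each region, were taken by their labels from a series of 33 RNA-seq libraries that also holds the cerebellum (Cb) and the earlier ages P7 and P10. Each region had 2 libraries of female mice (replicates 1 and 2) and 2 of male mice (replicates 3 and 4). All mice were untreated, were kept under SPF conditions and were perfused before the brain was taken, and the cells were sorted by FACS as CD45+, CD11b+ and Gr-. The study bred wildtype C57BL/6J and Cx3cr1GFP/WT mice, and the labels do not name the genotype of the sorted cells. They also do not say whether each library came from its own animal, so that the p-values below measure the spread between libraries, which may be technical. The gate is not specific to microglia, and the cells of a library were sequenced together, so that fewer cells of a kind and less RNA per cell cannot be told apart.

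Microglia are the resident macrophages of the brain, and they survey the tissue, prune synapses and clear debris. White matter is rich in myelin, a lipid membrane made by oligodendrocytes, and macrophages that take up myelin move its cholesterol and fatty acids through lysosomes, lipid droplets and lipoproteins. Apoe, Lpl, Clec7a, Igf1, Spp1 and Itgax belong to a group of genes that microglia express in developing white matter and in several diseases of the brain. Type I interferon acts through a complex of transcription factors that binds a short promoter element called the interferon-stimulated response element (ISRE) and raises antiviral genes.

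Counted reads ranged from 22761090 to 31049363 in the CC and from 29286256 to 38574198 in the Cx, and levels are given as CPM (reads of a gene scaled to a common library size with edgeR's TMM factors). Levels of single libraries are listed in the order of replicates 1 to 4. The microglia genes P2ry12, Tmem119, Cx3cr1 and Sall1 were high in all 8 libraries, with means of 10649, 6339.9, 2950.4 and 397 CPM in the CC and 11983, 6276, 2970.3 and 429 in the Cx. Markers of other cell types were summed without members at 100 CPM or more, such as Trf and Cnp of the oligodendrocyte list and Csf3r of the neutrophil list. The sums of 16 oligodendrocyte markers were 89.1 to 177 CPM in the CC and 63.2 to 90.7 in the Cx, with 1 CC library inside the range of the Cx. The myelin gene Mobp had 4.37, 8.42, 11.7 and 8.80 CPM in the CC and 0, 0.0264, 0.262 and 1.74 in the Cx. It was higher in each CC library and did not pass the test (adjusted p = 0.233). Of all 18 oligodendrocyte markers tested none was called, 13 were positive and 4 negative, and the median log2 fold change was 1.94. The sums of mural cell and fibroblast markers (5.82 to 64.6 CPM and 0.947 to 3.38) did not overlap, whereas those of border macrophages (23.6 to 67.1 and 43.4 to 60.6), monocytes (12.4 to 17.6 and 14.3 to 23.3), neutrophils (0 to 12.4 and 0 to 0.969), lymphocytes (82.5 to 105 and 53.5 to 93.8), neurons (10.2 to 19.5 and 9.57 to 14.5), astrocytes (5.31 to 21.0 and 2.10 to 11.1), endothelial cells (93.5 to 190 and 133 to 170), oligodendrocyte precursors (0.0672 to 4.58 and 0.0792 to 16.0), ependymal cells (0.366 to 52.3 and 0.106 to 16.0) and red cells (0.0458 to 11.8 and 0.0292 to 1.03) did. Of these lists only Acta2, a mural cell marker, was called. The part of RNA from other cells in the differences below was not tested. Fewer genes had a read in the CC (14284 to 15188 of those tested) than in the Cx (15696 to 16490), and after all libraries were thinned to 22760040 reads the ranges were 14122 to 14916 and 15165 to 16017. Mitochondrial genes took 0.448% to 0.619% of the reads in the CC and 0.412% to 0.523% in the Cx.

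Of 20917 genes tested, 51 were differentially expressed (0.244%), by an adjusted p of at most 0.01 with a log2 fold change of at least 1 in either direction. The test was edgeR's quasi-likelihood test over all 33 libraries with Benjamini-Hochberg adjustment, and every adjusted p below is from it unless another tool is named. There were 20 genes (0.0956%) higher in the CC and 31 genes (0.148%) lower. With RLE in place of TMM factors the split was 27 higher and 25 lower. A further 101 genes passed the fold limit at an adjusted p of 0.05 or less, 31 of them higher. The calls rest on a spread estimated over all ages and regions: a fit of the 8 libraries alone called 0 genes, with 1653 genes at an unadjusted p under 0.05 and the smallest adjusted p at 0.0373 for Klf2 and Lpl. The 12 libraries of P42 gave 3 genes, limma-voom over all libraries 26 and DESeq2 309. Leaving out 1 library gave between 25 genes (without Cx replicate 1) and 89 (without CC replicate 3), and 21 of the 51 genes were called in all 8 such fits, 14 of them higher and 7 lower in the CC.

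**Figure D1:**
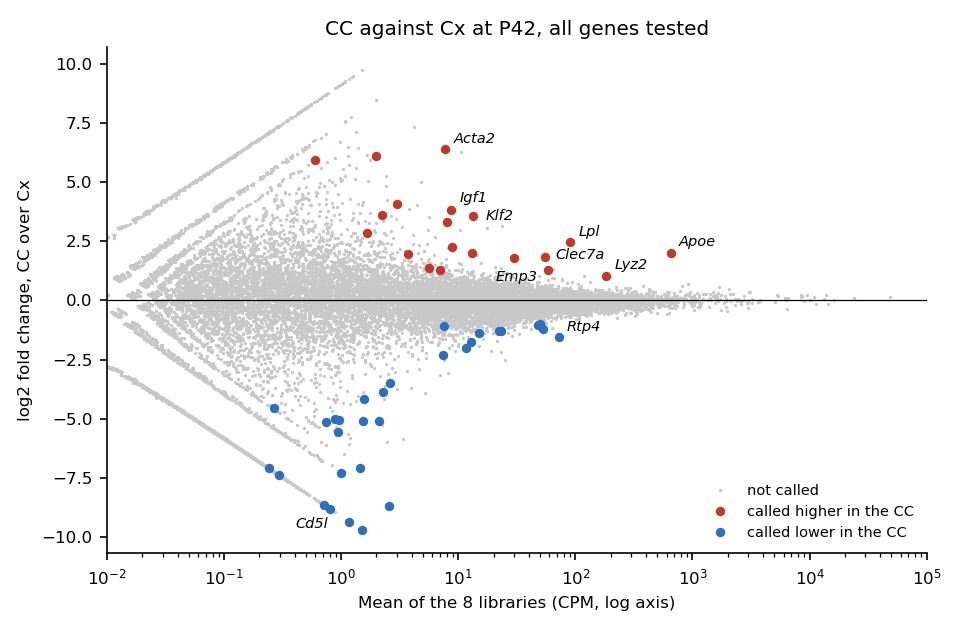
Log2 fold change of the CC over the Cx at P42 (vertical axis) against the mean level of the 8 libraries in CPM (horizontal log axis) for the 20917 genes tested. The 20 genes called higher in the CC (red) reach from low levels to Apoe, while 19 of the 31 genes called lower (blue) have a mean under 5 CPM. The slanted lines of grey points are genes with few reads in 1 region.

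Of 11215 genes whose mean reached 1 CPM, 366 (3.26%) higher in each CC library than in each Cx library, and 414 (3.69%) were lower. Among the 51 called genes the libraries of the regions did not overlap in 17 of the 20 higher and 25 of the 31 lower genes.

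The genes higher in the CC included several that handle lipids. Lpl, the lipase that releases fatty acids from lipoproteins (chr8:68880491-68907448, plus strand), had 123, 155, 113 and 217 CPM in the CC and 27.4, 27.5, 20.2 and 36.3 in the Cx. Apoe, the main lipoprotein of the brain (chr7:19696109-19699188, minus strand), had 886, 1070.3, 935 and 1308 CPM in the CC and 387, 217, 176 and 254 in the Cx. Each CC library was thus above each Cx library for both genes. The log2 fold changes were 2.45 for Lpl (standard error 0.189, adjusted p = 2.25e-09) and 2.02 for Apoe (standard error 0.211, adjusted p = 1.03e-06), or 5.46-fold and 4.06-fold between the means. Apoe lost its call with limma-voom (adjusted p = 0.938), which gave single libraries weights between 42.7 and 67800000 for this gene, whereas in Lpl the weights ran from 5.90 to 354 and the call was kept. The Cb of the same age had 223 ± 22.6 CPM of Lpl and 958 ± 354 CPM of Apoe (SD, n = 4).

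Fabp5, a carrier of fatty acids within cells, was found at 3.37, 1.56, 2.68 and 8.97 CPM in the CC and at 0.175, 0.740, 0.292 and 0.0969 in the Cx (log2 fold change 3.61, adjusted p = 0.000215). Apoc1, a small apolipoprotein whose gene lies beside Apoe, had 0.645, 2.15, 0.297 and 1.58 CPM in the CC and only 2 reads in the 4 Cx libraries together (adjusted p = 0.000177), so that its fold change cannot be given. Both were low, and both were higher in each CC library. The list of cholesterol and lipoprotein handling, which holds Apoe, Lpl and Fabp5, had 39 tested genes. Of these, 3 were called higher and 0 lower, against 0.0956% and 0.148% of all genes tested. In the list 21 genes had a positive and 16 a negative log2 fold change, and the median was 0.08 (0 over all genes tested). The scavenger receptor Scarb1 (0.66, adjusted p = 0.0212) did not pass. Abca1, which exports cholesterol, was at 182, 137, 198 and 158 CPM in the CC and 261, 262, 315 and 309 in the Cx, below each Cx library, and also did not pass (-0.76, adjusted p = 0.0244).

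Clec7a, the receptor dectin-1 (chr6:129461591-129472779, minus strand), had 51.5, 90.9, 59.8 and 145 CPM in the CC against 16.1, 33.9, 27.1 and 18.8 in the Cx (log2 fold change 1.85, standard error 0.249, adjusted p = 9.64e-05). Igf1, a growth factor that acts on oligodendrocytes and neurons (chr10:87858265-87937042, plus strand), had 7.34, 20.2, 18.9 and 18.7 CPM against 0.140, 3.43, 0.466 and 0.355, with 1 higher value in Cx replicate 2 (log2 fold change 3.82, standard error 0.502, adjusted p = 7.18e-05). CC replicate 1 was the lowest for both genes, and still above the Cx. Lyz2, the lysozyme of macrophages, had 219, 270.5, 229 and 272 CPM against 104, 104, 138 and 131 (log2 fold change 1.05, adjusted p = 3.13e-05). It lay at the fold limit and fell under it without Cx replicate 1 or Cx replicate 2, with log2 fold changes of 0.991 and 0.998. Anxa5, which binds phosphatidylserine on dying cells, had 69.6, 68.8, 79.5 and 111 CPM against 23.7, 33.8, 36.0 and 42.9 (log2 fold change 1.27, adjusted p = 0.000308).

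The list of lipid uptake and disease-associated genes held 34 tested genes, and 6 of them were called higher (Apoe, Lpl, Clec7a, Igf1, Fabp5 and Lyz2) and 0 lower. Among all genes tested, 0.0956% were called higher and 0.148% lower. Of the 34 genes, 29 had a positive log2 fold change, and the median was 0.37. In 17 of the 32 with at least 1 CPM each CC library was above each Cx library, against 3.26% of all genes at that level. The median kept its sign in all alternatives, between 0.34 and 0.44, but these use the same libraries. The list was chosen with earlier results of these data known, so that its counts and median are not independent evidence. Spp1, the secreted protein osteopontin, had 12.4, 128, 15.6 and 14.8 CPM in the CC and 5.58, 4.09, 6.71 and 2.84 in the Cx. It did not pass (log2 fold change 3.14, adjusted p = 0.0159), and its highest value was in CC replicate 2. Lgals3, which encodes galectin-3, had 20.6, 27.5, 20.7 and 58.2 CPM against 1.40, 5.81, 3.32 and 4.43 and did not pass either (3.08, adjusted p = 0.0167). The same held for Axl, a receptor for dying cells (1.43, adjusted p = 0.0211), and Itgax, the integrin CD11c (1.05, adjusted p = 0.21). Trem2 (0.17), Tyrobp (0.05) and Cst7 (-0.10), genes of the same group, were far from the fold limit.

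The study named 12 genes as known priming genes, and from clustering of the same series it proposes that they are highly upregulated in CC microglia at P7. Their choice may thus not be independent of this series. The study reports that this upregulation was gone at P10 in all regions, and that adult microglia were similar across regions. It also found no CLEC7A staining in cortical microglia at any age. Those statements rest on clustering and on protein, while the calls here test RNA of the CC against the Cx. At P10, 5 of the 12 were called higher by this test, against 0.287% of all genes tested. At P42, Clec7a, Igf1 and Anxa5 were called higher and none lower, against 0.0956% and 0.148% of all genes tested. Of the 12 genes, 10 had a positive and 2 a negative log2 fold change at P42, and the median was 1.76. Their summed level was 203 to 471 CPM in the CC and 86.1 to 123 in the Cx. The study also named 5 phagocytosis genes among those regulated in its samples (Gsn, Cd36, Abca1, Grk6 and Scarb1), so that their direction is not independent evidence. Of these, none was called, 4 were positive, and their sum was lower in the CC (252 to 296 CPM) than in the Cx (338 to 384). Most of that sum was Abca1, the only negative gene, with means of 169 CPM in the CC and 287 in the Cx. Among 45 phagocytic receptors and bridging molecules only Clec7a and Anxa5 were called, against 0.244% of all genes tested, and the median was 0.03. Cd14, the co-receptor for bacterial lipopolysaccharide, passed the p-value limit but not the fold limit (0.61, adjusted p = 0.00217), and so did Sirpa, the receptor of the signal CD47, in the other direction (-0.30, adjusted p = 0.00971).

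Border macrophages also express Apoe and Lyz2. Mrc1, a defining marker of these cells, had 10.2, 35.7, 9.85 and 0.302 CPM in the CC and 29.6, 22.5, 17.6 and 21.8 in the Cx, and Lyve1 had no read in the CC. Other members of the list went the other way: of 15 tested, 6 were positive and 7 negative, none was called, and the median log2 fold change was 0. With the members at 100 CPM or more, the list summed to 1205 to 1434 CPM in the CC and 1023 to 1396 in the Cx. The oligodendrocyte gene Mobp was higher in each CC library, as given above. The part of either cell type in the differences of these genes was not tested.

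**Figure D2:**
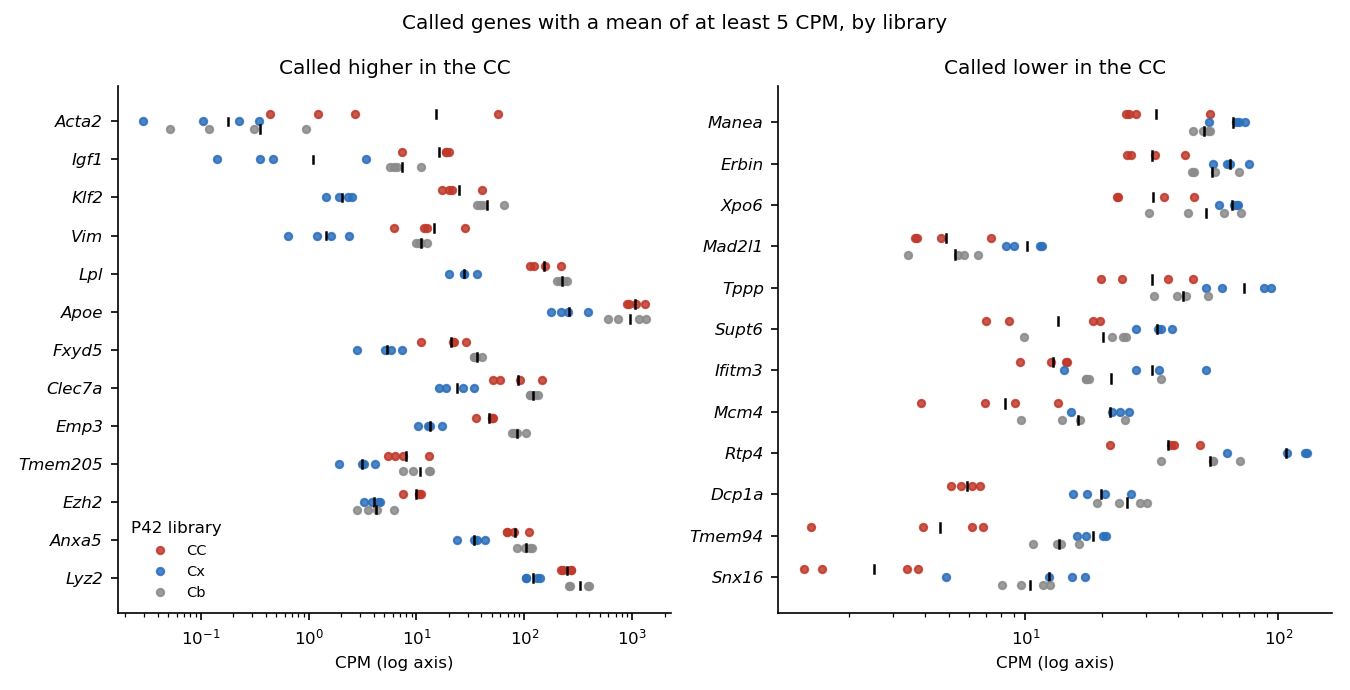
Level of 13 genes called higher (left) and 12 called lower in the CC (right) with a mean of at least 5 CPM, on log axes in CPM. Each point is 1 library of the CC (red), Cx (blue) or Cb (grey) at P42 and each black bar is a group mean. The red and blue points are apart for most genes, and Acta2 shows 1 CC library at 56.5 CPM while the others lie at 2.71 or less.

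Klf2 had the smallest adjusted p together with Lpl. It encodes a zinc finger transcription factor that keeps endothelial cells and lymphocytes quiescent and restrains inflammatory genes in macrophages. Klf2 (chr8:72319033-72321656, plus strand) had 21.4, 17.3, 20.1 and 40.1 CPM in the CC and 1.93, 1.45, 2.30 and 2.55 in the Cx. The lowest CC library was far above the highest Cx library, and the Cb had 45.0 ± 13.0 CPM (SD, n = 4). The log2 fold change was 3.59 (standard error 0.279, adjusted p = 2.25e-09), 12.0-fold between the means, and it stayed between 3.25 and 3.74 in all alternatives. At P10 and P7 the fold changes were -0.43 (adjusted p = 0.385) and -0.35 (adjusted p = 0.742). The difference at P42 exceeded that at P10 by 4.01 (adjusted p = 5.79e-08) and that at P7 by 3.93 (adjusted p = 2.31e-07), on the log2 scale.

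Levels of Klf2 at each age are given in turn. It was at 16.8 ± 1.27 CPM in the CC and 21.3 ± 8.73 in the Cx at P7 (SD, n = 3). It was at 15.9 ± 3.41 and 21.3 ± 2.28 at P10 and at 24.7 ± 10.4 and 2.06 ± 0.479 at P42 (SD, n = 4). The Cx libraries of P42 thus stood lowest of the 6 CC and Cx groups.

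The 250 bases before the start of Klf2 in RefSeq (chr8:72318812-72319061, plus strand, GRCm38.p6) are shown because this gene leads the comparison. A match to CTA, 4 bases of any kind and TAG is in capitals. This pattern is looser than the site bound by MEF2 factors. Of 27025 genes with such a window, 1000 (3.70%) hold a match on either strand. Of the called genes with a window, 1 of 16 higher genes (Klf2, 6.25%) and 1 of 23 lower genes (4.35%) did, near that share. A match does not show that a factor binds there.
Klf2: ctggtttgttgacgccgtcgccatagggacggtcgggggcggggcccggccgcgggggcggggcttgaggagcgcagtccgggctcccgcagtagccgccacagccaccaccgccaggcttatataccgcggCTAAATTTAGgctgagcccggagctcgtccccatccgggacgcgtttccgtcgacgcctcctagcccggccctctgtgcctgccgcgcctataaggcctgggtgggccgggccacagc

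Klf2 is also a gene of the immediate early response, which sorting can induce. Of 33 such genes tested, Klf2 was called higher and none lower, 24 were positive and 9 negative, and the median was 0.37. By edgeR's quasi-likelihood test 12 were higher and 1 lower at an unadjusted p under 0.05, against 6.97% and 9.7% of all genes tested. Their sum was 2671 to 3445 CPM in the CC and 2424 to 3063 in the Cx. Without members at 100 CPM or more, such as Jun, the sum was 331 to 551 CPM in the CC and 255 to 379 in the Cx. Fos had 5.91, 5.40, 3.57 and 9.41 CPM in the CC and 1.44, 3.99, 1.84 and 3.75 in the Cx (adjusted p = 0.144), and Jun had 264, 354, 292 and 341 and 264, 309, 304 and 228 (adjusted p = 0.473). The part of this response in the level of Klf2 was not tested. Of the other 12 tested genes of the KLF family none was called. Klf6 passed only the p-value limit (0.52, adjusted p = 0.00889), Klf4 had a mean of 0.725 CPM in the CC and 0.127 in the Cx, and the median of the family was 0.15.

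Emp3, Fxyd5 and Ezh2 were, like Klf2, higher in the CC at P42 with a difference that exceeded that of both earlier ages. Emp3, a membrane protein (chr7:45918023-45921404, minus strand), had 49.9, 51.3, 35.5 and 50.4 CPM in the CC and 10.3, 17.3, 12.7 and 13.3 in the Cx at P42 (log2 fold change 1.80, standard error 0.151, adjusted p = 9.63e-09). Fxyd5, a regulator of the sodium pump, had 29.0, 21.6, 11.1 and 22.2 CPM against 7.40, 5.07, 2.83 and 5.81 (log2 fold change 1.99, adjusted p = 0.000165). Ezh2, the enzyme that methylates histone H3 in the Polycomb complex, had 10.6, 11.1, 7.54 and 10.7 CPM against 4.38, 3.86, 4.61 and 3.26 (log2 fold change 1.30, adjusted p = 0.000729). In each of them the regions did not overlap at P42. Mean levels of Emp3 at P7, P10 and P42 were 101, 45.0 and 46.8 CPM in the CC and 114, 67.7 and 13.4 in the Cx. Fxyd5 had means of 31.9, 9.08 and 21.0 CPM in the CC and 30.8, 11.3 and 5.28 in the Cx. For Ezh2 the means were 27.6, 22.2 and 9.96 CPM in the CC and 56.2, 31.3 and 4.03 in the Cx. All 3 genes were thus lower at P42 than at P7 in both regions. The fold changes at P10 were -0.59 for Emp3, -0.32 for Fxyd5 and -0.50 for Ezh2, and at P7 they were -0.17, 0.05 and -1.03. At P7 Ezh2 was called lower in the CC (adjusted p = 0.00802). The difference between ages passed the test for all 3 genes, by 2.39, 2.31 and 1.80 against P10 and by 1.97, 1.94 and 2.33 against P7. Emp3 and Fxyd5 were also high in the Cb, at 86.3 ± 11.6 CPM and 36.1 ± 2.81 CPM (SD, n = 4), whereas Ezh2 was at 4.21 ± 1.46 CPM, near the Cx.

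Vim, the filament protein vimentin, had 6.23, 12.4, 11.7 and 28.3 CPM in the CC and 1.19, 2.38, 1.60 and 0.646 in the Cx (log2 fold change 3.33, adjusted p = 0.00524). Tmem205, a membrane protein, had 5.45, 6.27, 7.50 and 13.1 against 3.12, 1.93, 3.27 and 4.13 (log2 fold change 1.38, adjusted p = 0.00889). In both genes each CC library was above each Cx library, and the calls of Vim and Tmem205 were each lost in 4 of the 8 fits without 1 library, namely those without CC replicate 4, Cx replicate 1 and Cx replicate 3 for both and without Cx replicate 4 for Vim or Cx replicate 2 for Tmem205 (adjusted p 0.0165 to 0.0251 for Vim and 0.0191 to 0.0455 for Tmem205).

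Acta2, the actin of smooth muscle, had 1.22, 56.5, 2.71 and 0.437 CPM in the CC and 0.351, 0.106, 0.0292 and 0.226 in the Cx (log2 fold change 6.41, adjusted p = 0.00971). CC replicate 2 carried this value. The call was lost without it (adjusted p = 0.173, log2 fold change 3.03) and without each single Cx library (adjusted p 0.0262 to 0.173 over the 5 fits). Without Acta2 the mural cell and fibroblast markers summed to 3.11 to 8.06 CPM in the CC, highest in the same library, and 0.596 to 3.28 in the Cx. Without CC replicate 2 the comparison gave 50 genes, 24 higher and 26 lower, 34 of them among the 51.

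The other genes called higher had means under 5 CPM. Crip1 (1.96, adjusted p = 0.000314) and Mt2, a metallothionein (2.86, adjusted p = 0.0021), were higher in each CC library. Mt2 shares 73.5% of its exon bases with a gene on the opposite strand, and reads assigned to several genes were discarded, so that a count made without strand would leave these bases out. Anxa2 (0.0358, 8.79, 6.87 and 0.0672 CPM in the CC, 0.0351, 0.106, 0.0292 and 0.0323 in the Cx) and Cdk18 (5.77, 4.81, 12.0 and 0.0672 and 0.210, 0.0264, 0.408 and 0.711) overlapped between regions. Their calls were lost without single libraries, that of Anxa2 without Cx replicate 1 or 3 (adjusted p 0.0101 to 0.0127) and that of Cdk18 in each fit but those without CC replicate 1 or 4 (adjusted p 0.0109 to 0.039).

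Most genes of the interferon response had lower levels in the CC. Of the 33 tested, 28 had a negative and 5 a positive log2 fold change, and the median was -1.13, against 0 over all genes tested. Only Rtp4 and Ifitm3 were called (2 lower, 0 higher), against 0.148% lower and 0.0956% higher of all genes tested. By the same test 19 genes of the list had an unadjusted p under 0.05, each of them lower, against 2028 lower genes (9.7%) and 1458 higher genes (6.97%) among all tested. In 9 of the 30 genes that reached 1 CPM each CC library was below each Cx library, against 3.69% of all genes at that level. The median stayed between -1.31 and -0.86 in the alternatives, which use the same libraries. This list too was chosen with earlier results of these data known, so that its counts are not independent evidence. The list summed to 548 to 708 CPM in the CC and 741 to 1427 in the Cx, which did not overlap, and to 730 to 1027 in the Cb.

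Rtp4, an interferon-induced chaperone (chr16:23520291-23614222, plus strand), had 38.7, 49.0, 37.5 and 21.6 CPM in the CC and 129.6, 108, 62.8 and 127 in the Cx. Cx replicate 3 was well below the other Cx libraries and still above the CC. The log2 fold change was -1.54 (standard error 0.268, adjusted p = 0.00217), and the adjusted p was 0.0101 to 0.0124 without CC replicate 4 or Cx replicate 1. Ifitm3, which blocks the entry of viruses into cells (chr7:141009586-141010770, minus strand), had 9.49, 14.6, 12.6 and 14.5 CPM against 27.4, 33.7, 14.2 and 51.9 (log2 fold change -1.31, standard error 0.272, adjusted p = 0.00989). The regions overlapped through Cx replicate 3. The call of Ifitm3 was kept without that library alone and lost in the other 7 fits without 1 library (adjusted p 0.0189 to 0.066).

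Other genes of the list did not pass. Xaf1, a gene of interferon-induced cell death, had 12.4, 10.9, 10.9 and 13.8 CPM in the CC and 31.4, 29.9, 16.6 and 33.2 in the Cx (-1.21, adjusted p = 0.0127). Ifit3, an RNA-binding antiviral protein, had 4.80, 11.3, 15.3 and 2.32 CPM against 31.7, 23.2, 16.7 and 81.5 (-2.18, adjusted p = 0.0593). In Xaf1 and Ifit3 each CC library was below each Cx library. The spread within each region was wide: Usp18, the protease that removes ISG15, ran from 1.33 to 16.4 CPM in the CC and from 16.5 to 55.0 in the Cx (adjusted p = 0.0835). Rsad2, the antiviral enzyme viperin, had 0.0358, 0.412, 0.0330 and 0 CPM in the CC and 1.05, 2.48, 1.78 and 21.0 in the Cx (adjusted p = 0.0336). The exceptions included the chemokine gene Cxcl10, with 12.1, 0.137, 20.3 and 0.571 CPM in the CC and 1.96, 0, 0.0292 and 5.81 in the Cx (adjusted p = 0.541), and Bst2, which tethers virus particles (0.05, adjusted p = 0.893).

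**Figure D3:**
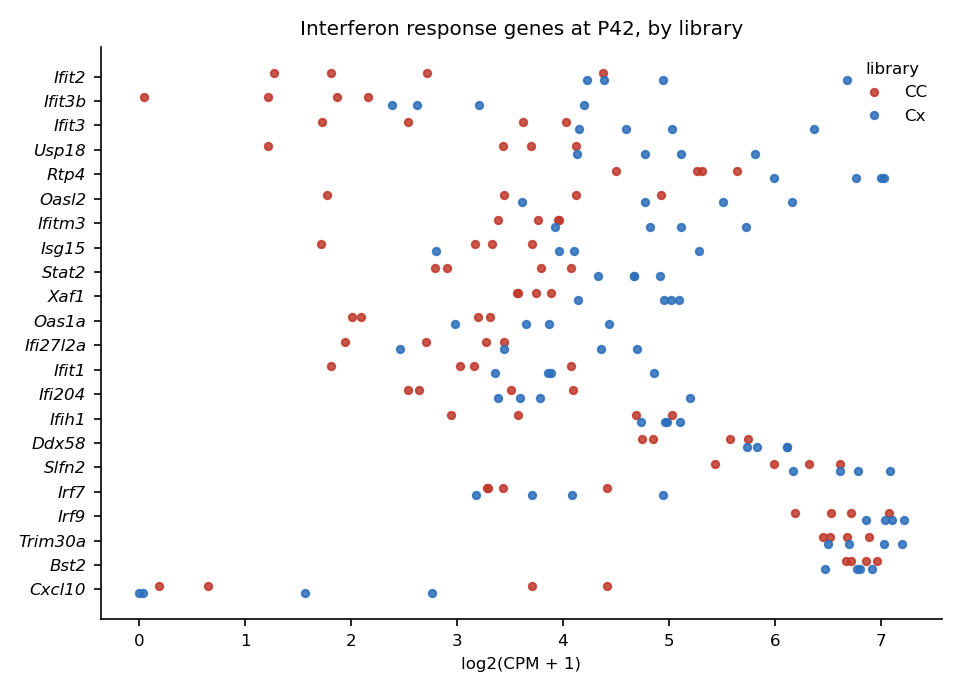
Level of 22 interferon response genes whose mean reached 5 CPM (rows), as log2(CPM + 1), in each CC (red) and Cx (blue) library at P42. Most red points lie to the left of the blue points, in Rtp4 and Ifit3 without overlap, while Bst2 and Trim30a mix and Cxcl10 is highest in 2 CC libraries.

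The 250 bases before the start of 3 genes of the list (RefSeq, GRCm38.p6) are shown for the element by which interferon acts on them, searched as GAAA, 2 bases of any kind and GAAA on both strands with matches in capitals. Matches were found in Ifit3 (chr19:34583279-34583528, plus strand) and Rsad2 (chr12:26456453-26456702, minus strand), and none in this window of Ifitm3 (chr7:141010745-141010994, minus strand).
Ifit3: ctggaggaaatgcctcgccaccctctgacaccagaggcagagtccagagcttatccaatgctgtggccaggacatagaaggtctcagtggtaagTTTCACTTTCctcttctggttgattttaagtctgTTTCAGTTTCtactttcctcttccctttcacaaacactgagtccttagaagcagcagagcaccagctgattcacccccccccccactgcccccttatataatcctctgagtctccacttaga
Rsad2: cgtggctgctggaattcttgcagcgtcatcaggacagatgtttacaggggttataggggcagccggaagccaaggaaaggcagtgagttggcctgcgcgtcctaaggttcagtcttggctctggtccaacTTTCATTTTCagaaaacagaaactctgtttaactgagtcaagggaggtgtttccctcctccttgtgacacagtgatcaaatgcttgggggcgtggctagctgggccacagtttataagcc
Ifitm3: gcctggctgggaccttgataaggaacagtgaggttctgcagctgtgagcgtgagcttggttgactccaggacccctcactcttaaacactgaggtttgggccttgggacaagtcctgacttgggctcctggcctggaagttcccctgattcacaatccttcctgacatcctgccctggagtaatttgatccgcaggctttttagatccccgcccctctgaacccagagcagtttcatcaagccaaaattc
Of the 33 genes of the list, 24 have a window and 12 of them hold a match, against 936 of all 27025 genes (3.46%). Of the called genes, 0 of 16 higher and 1 of 23 lower genes with a window (Xpo6) hold one. Rtp4 has no window in the table used. A match describes the letters of the window and does not show that a factor binds there.

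At the earlier ages the interferon list had no called gene in either direction. Its median was 0.23 at P10, with 22 positive and 11 negative genes, and -0.07 at P7, with 15 positive and 18 negative genes. The medians of all genes tested were -0.04 and -0.06. The difference between P42 and P7 passed the test for Xaf1 (-1.81, adjusted p = 0.00955) and for no other gene of the list. Rtp4 had 0.23 at P10 and -0.12 at P7, and the difference between ages did not pass (adjusted p = 0.0117 and 0.0645).

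The remaining 10 lower genes at a mean level of 5 CPM or more had log2 fold changes between -2.30 (Snx16, an endosomal sorting protein) and -1.01 (Manea, a mannosidase). Dcp1a, which takes part in the removal of the cap of messenger RNA, had 6.13, 5.08, 6.64 and 5.58 CPM in the CC and 26.1, 15.5, 17.6 and 20.6 in the Cx. Its log2 fold change was -1.77 (adjusted p = 0.00165, and 0.0106 without Cx replicate 1). Tmem94 had 6.16, 1.42, 6.81 and 3.93 CPM against 20.8, 17.3, 20.2 and 16.0 (log2 fold change -2.01, adjusted p = 0.000708) and was called in all 8 fits without 1 library. Mcm4, a subunit of the replicative helicase, had 6.95, 13.4, 3.87 and 9.11 CPM against 25.7, 23.7, 21.9 and 15.2 (log2 fold change -1.38, adjusted p = 0.00823). Tppp, a protein that binds tubulin and is abundant in oligodendrocytes, had 19.8, 24.0, 46.0 and 36.7 CPM against 93.8, 51.6, 60.1 and 87.4 (log2 fold change -1.21, adjusted p = 0.00541), while Mobp was higher in each CC library. The calls of Mcm4, Supt6, Manea, Erbin, Xpo6, Mad2l1, Snx16 and Tppp were each lost in 4 to 7 of the 8 fits that left out 1 library, and each of the 8 libraries was the one left out for at least 1 of them, with adjusted p of at most 0.0479.

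The other 19 lower genes had Cx means between 0.482 and 5.12 CPM and CC means of at most 0.449 CPM. Of these, 12 had 3 reads or fewer in each CC library, the detection limit taken here, and 6 had no read in the CC. Cd5l, a secreted protein of macrophages, had 0 reads in each CC library and each Cb library and 1.72, 3.22, 2.59 and 1.84 CPM in the Cx, at least 21.1-fold higher than the level of 3 reads in each CC library (adjusted p = 0.000833). Slfn10-ps, Stmn3, Cdc14b, Slc6a9 and Fabp7 also had no read in the CC, and their Cx means were at least 26.8, 14.4, 12.8, 5.30 and 4.34-fold higher on the same footing. Of these 6 genes, Cd5l and Stmn3 were called in all 8 fits without 1 library, Cdc14b was lost without CC replicate 4, Slfn10-ps without CC replicate 2 or 4, and Slc6a9 and Fabp7 in 7 fits each, all but those without Cx replicate 4 and Cx replicate 2. Slc6a9 shares 30.2% of its exon bases with genes on the opposite strand. Several of these low genes act in cell division. Racgap1, needed for the cleavage of the cell, had 0.0358, 0.0458, 0.0661 and 0.470 CPM in the CC and 2.35, 0.581, 1.72 and 7.27 in the Cx (adjusted p = 0.000215). Ncapd2, a subunit of condensin, had 0.788, 1.01, 0 and 0 CPM against 5.26, 5.60, 4.64 and 3.55 (adjusted p = 0.00217). They were chosen after their values were seen. The list of 24 cell division genes gave no call, with 9 positive and 15 negative genes and a median of -0.25, which was 0.24 without Cx replicate 3 and 0.19 in females alone. Mki67 and Top2a were under 1 CPM in both regions. Fewer genes were detected in the CC libraries at equal depth, as given above, and 53 tested genes with a Cx mean of at least 1 CPM were at the detection limit in the CC, against 56 the other way. The part of detection in these calls was not tested.

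Homeostatic genes of microglia differed little. None of 30 was called, 15 were positive and 15 negative, the median was 0.002, and the range ran from -0.44 (Tgfbr1) to 0.24 (Sparc). Fcrls, an Fc receptor-like gene of microglia, passed only the p-value limit, with 6398, 5748, 5807 and 4250.5 CPM in the CC and 7483, 7351, 6580.1 and 7232 in the Cx (-0.37, adjusted p = 0.00971). Tgfbr1, the receptor by which TGF-beta maintains microglia, had 1766, 1635, 1743 and 1532 CPM against 2203, 2146, 2394 and 2344 (-0.44, adjusted p = 0.0423). Both were below each Cx library in each CC library. Of 30 genes of the TGF-beta pathway none was called, 9 were positive and 20 negative, and the median was -0.15. The pathway summed to 4241 to 4624 CPM in the CC and 5159 to 5629 in the Cx.

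**Figure D4:**
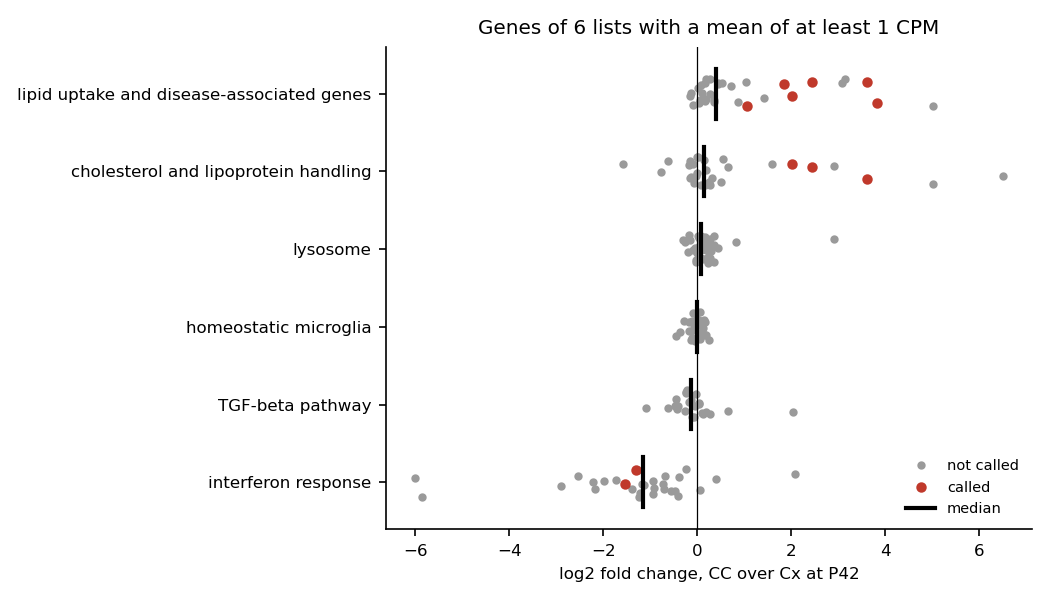
Log2 fold change of the CC over the Cx at P42 (horizontal axis) for the genes of 6 lists whose mean reached 1 CPM. Each point is 1 gene, red where it was called, and each black bar is the median of the list. The interferon response lies to the left with a median of -1.15 and the lipid uptake list to the right with 0.40, while homeostatic genes lie within 0.45 of 0.

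Lysosomal genes gave no call among 38, with 26 positive and 12 negative genes and a median of 0.09. The cathepsins Ctsl (0.28, adjusted p = 0.0234) and Ctsz (0.37, adjusted p = 0.0307) were above the Cx in each CC library. No gene was called for complement (18 tested, median 0.18), antigen presentation by class II (14, median 0.20) or class I (17, median -0.03), toll-like receptors and their signalling (29, median -0.07) or purinergic receptors (18, median 0.02). The medians of these lists other than class II took both signs in the alternatives. Among 36 cytokines and chemokines only Igf1 was called, and the median was 0.18. Ccl6, a chemokine of myeloid cells, passed the p-value limit alone (0.53, adjusted p = 0.00524). Ccl3 and Ccl4, which attract leukocytes, had means of 92.7 and 159 CPM in the CC and 36.4 and 76.9 in the Cx and did not pass (adjusted p = 0.0917 and 0.176).

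The comparison of P42 was set beside those of P10 and P7, which used other libraries. At P10, 60 genes were higher in the CC (0.287%) and 61 lower (0.292%), and at P7, 108 were higher (0.516%) and 30 lower (0.143%). Of the 20 genes higher at P42, 12 were called higher at P10 and 12 at P7, 11 of them at both ages. Their median log2 fold change was 1.88 at P10 and 2.19 at P7. Of the 31 genes lower at P42, only Manea was called lower at P10 (-1.23, adjusted p = 0.000275), and none at P7. Their medians were -0.28 and -0.13.

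**Figure D5:**
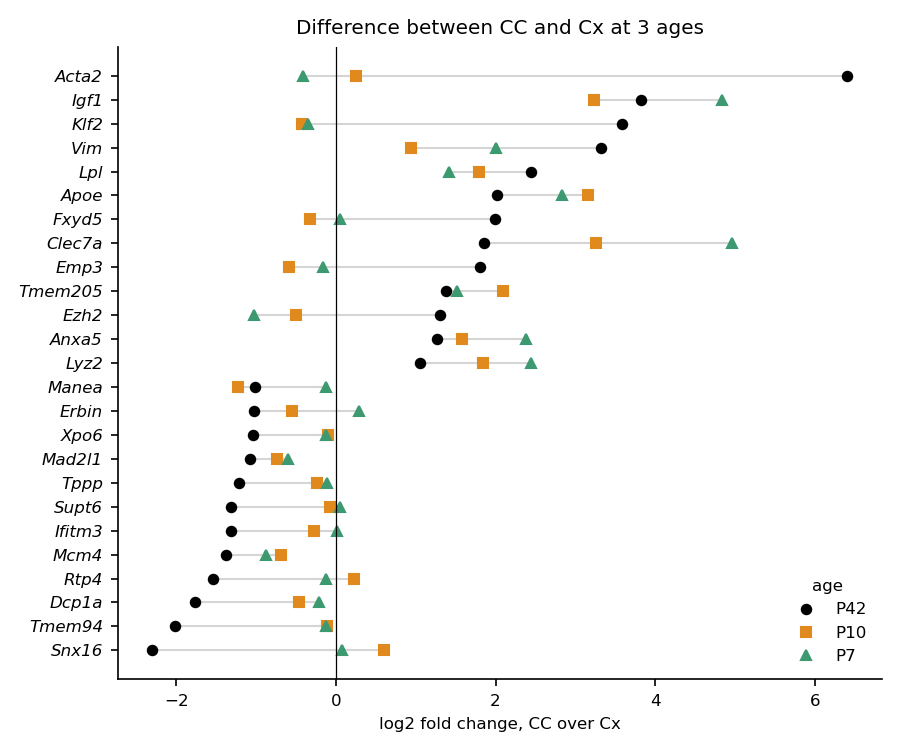
Log2 fold change of the CC over the Cx (horizontal axis) at P42 (black circles), P10 (orange squares) and P7 (green triangles) for 25 genes called at P42 with a mean of at least 5 CPM. Klf2, Fxyd5 and Emp3 lie near 0 or below it at the earlier ages, Apoe, Lpl, Clec7a and Igf1 lie to the right at all 3 ages, and most genes lower at P42 lie near 0 earlier.

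The regional difference itself was tested between ages. It differed from P10 in 46 genes (0.22%), 23 with a more positive and 23 with a more negative value at P42, and from P7 in 111 genes (0.531%), 35 more positive and 76 more negative. The called genes of P42 made up 10 and 11 of these, and since their choice used the P42 difference, these tests are not independent of it. Clec7a was at 353 ± 35.1 CPM in the CC and 11.3 ± 0.559 in the Cx at P7 (SD, n = 3), and its fold change at P42 was -3.11 relative to P7 (adjusted p = 4.72e-06). The corresponding value of Lyz2 was -1.39 (adjusted p = 6.25e-05). The differences of Apoe (-1.13 against P10 and -0.81 against P7), Lpl (0.65 and 1.04) and Igf1 (0.59 and -1.02) did not pass (adjusted p = 0.042 and 0.208, 0.21 and 0.0419, and 0.799 and 0.569).

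Genes that were not called at P42 also differed between ages, among them those of cholesterol export. Abca1 had log2 fold changes of 1.10 at P10 and 1.52 at P7 and -0.76 at P42, differences of -1.87 (adjusted p = 5.67e-05) and -2.28 (adjusted p = 3.49e-06). Abcg1 had 1.56, 1.80 and -0.16, differences of -1.72 (adjusted p = 6.4e-08) and -1.96 (adjusted p = 2.02e-08). Both were called higher in the CC at P10 and at P7. The chemokine genes Ccl6 and Ccl9 also differed from both ages, by -1.53 and -1.80 and by -1.27 and -1.77. Itgax differed from P7 by -5.13 (adjusted p = 1.46e-05). Tmem119, a homeostatic gene, had -1.10 at P7 and 0.01 at P42, a difference of 1.11 (adjusted p = 1.91e-05).

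The regional difference at P42 was compared between the sexes in a fit with each group split by sex, with 2 libraries a side. It differed in 7 genes (0.0335%), with the log2 fold change of CC over Cx higher in males in 2 and higher in females in 5, with means over the 8 libraries of 2.18 to 7.67 CPM, and 1839 genes had an unadjusted p under 0.05. None of the 51 called genes was among the 7. In each of the 7 genes both CC libraries of either the females or the males had at most 0.1322 CPM. Within females 17 genes were called and within males 28. The log2 fold changes in females and males were 3.52 and 3.63 for Klf2, 2.34 and 2.55 for Lpl, 1.70 and 2.39 for Apoe, and -1.44 and -1.68 for Rtp4. The count rests on single libraries, from 0 genes without Cx replicate 2 to 225 without CC replicate 3.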

How the data were processed

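RNA of FACS-sorted CD45+ CD11b+ Gr- brain cells was amplified as cDNA by PCR and sequenced. The authors deposited a table of raw read counts per gene, made with CASAVA 1.8.2, STAR 2.5.2b on GRCm38 and featureCounts 1.6.2, which discarded multimapping and multi-overlapping reads. The annotation release and the strand setting are not given in the sources used here. Per the labels, 8 libraries formed the groups CC and Cx at P42.

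Of 48587 genes, 17212 without a read and the 10458 lowest by summed count were removed, and 20917 were tested. The 92 spike-in sequences were left out. The test was edgeR 4.0.16 (R 4.3.3), a robust quasi-likelihood fit with TMM factors and 9 group coefficients over 33 libraries. A gene was called at an adjusted p (Benjamini-Hochberg) of at most 0.01 with a log2 fold change of at least 1 in either direction. The study's own pipeline used limma 3.38. Fits with limma-voom 3.58.1, DESeq2 1.42.0, other factors, filters, covariates and samples were the alternatives. Only the main edgeR tests and the limma-voom fit of the P42 comparison were also run on simulated counts. A library's 1 read was worth 0.0264 to 0.0458 CPM, and 3 reads were taken as the detection limit, for counting error only. No pair of the 8 libraries agreed within sampling noise, and each was counted as 1 replicate. That check can find a library sequenced again, but it cannot tell whether libraries came from separate animals.

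Genes were named if they were called with a mean of at least 5 CPM, if they stood in a gene list or if the study's text named them as priming or phagocytosis genes. The members and lists were chosen with earlier results of these data known, and the limit of 100 CPM in sums of markers was set after their values were seen. Coordinates are those of the deposited table (GRCm38), and 45 of the 51 called genes had the same span in GENCODE M21. Promoter windows were taken from RefSeq (GRCm38.p6). Same-numbered libraries were not paired by the labels. Results for a few genes are not reported here.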

Additional observations from a re-analysis of the deposited data

Results flagged for a closer look

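Of 110 groups of 4 libraries examined, 10 held a library whose gap to its nearest neighbour was a larger share of the range than Dixon's limit for 4 values allows, where chance gives about 1 in 20. CC replicate 2 stood high for Acta2 (56.5 CPM), the summed markers of mural cells and fibroblasts (64.6 CPM), of which Acta2 was the most, and Manea (53.7 CPM). CC replicate 1 stood low for Igf1 (7.34 CPM) and high for the summed monocyte markers (17.6 CPM). CC replicate 3 stood low for Emp3 (35.5 CPM) and Ezh2 (7.54 CPM). CC replicate 4 stood high for the summed genes of cholesterol and lipoprotein handling (4695 CPM) and low for those of the lysosome (92033 CPM). Cx replicate 2 stood high for Igf1 (3.43 CPM).

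The regional difference at P42 differed from that of another age in genes named or listed here, by edgeR's quasi-likelihood test of the difference over all genes tested, out of 273 genes examined. Values are log2 fold changes at P42 minus those of the earlier age. Against P10 and P7 in turn they were 4.01 and 3.93 for Klf2, 2.31 and 1.94 for Fxyd5, 2.39 and 1.97 for Emp3, and 1.80 and 2.33 for Ezh2. They were -1.53 and -1.80 for Ccl6, -1.87 and -2.28 for Abca1, -1.72 and -1.96 for Abcg1, and -1.27 and -1.77 for Ccl9. Against P7 alone the difference passed for Itgax (-5.13), Clec7a (-3.11), Csf1 (-2.23), Xaf1 (-1.81), Ank (-1.61), Lyz2 (-1.39), Lipa (-1.33), Plin2 (-1.28), Cd300a (-1.18), Ctsb (-1.13), Cd83 (-1.11), Pnpla2 (-1.11), Soat1 (-1.10), Ctsl (-1.10) and Ctsa (-1.04), and with the other sign for Tmem119 (1.11) and Cd52 (1.00). Against P10 alone it passed for Hmgcs1 (1.48) and H2-DMa (1.10).

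Reads on spike-in sequences, which enter no comparison, were found in the 8 libraries, at most 18 in 1 library.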

How the results depend on the processing

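The count of 51 genes at P42 was 26 with limma-voom, 309 with DESeq2, 3 with the 12 libraries of P42, 17 within females and 28 within males. It was 0 with only the groups compared, by edgeR's quasi-likelihood test, where 1653 genes had an unadjusted p under 0.05. It stayed within 1.5 times of the 51 with RLE factors (52), filterByExpr (57), no filter (49) and sex as covariate (42). Leaving out 1 library gave 25 (without Cx replicate 1) to 89 (without CC replicate 3), and 86 without CC replicate 1. The difference against P10 (46 genes) was 297 with DESeq2 and 20 with only the groups compared, and 32 to 64 without 1 library. That against P7 (111 genes) was 331 with DESeq2 and 50 with only the groups compared, and 76 to 134 without 1 library. The difference between sexes (7 genes) was 141 with DESeq2, 235 without a filter and 0 with the P42 libraries, where 1172 genes had an unadjusted p under 0.05, and 0 (without Cx replicate 2, with 1478 at an unadjusted p under 0.05) to 225 (without CC replicate 3) without 1 library. The cause was not tested. With the replicate number as a block, 35 genes were called at P42, 28 of them among the 51, with 33 against P10 and 93 against P7. Deviations of same-numbered CC and Cx libraries correlated by 0.022, 0.028, 0.047 and -0.032 over 10083 genes. Cx replicates 1, 2 and 3 each correlated best with the CC library of the same number, and Cx replicate 4 with CC replicate 3 (0.033). Correlations this small cannot decide whether same-numbered libraries share an animal. None of the 51 called genes changed direction in the 19 alternatives, which were not run for other named genes. Of 17 list medians, 9 came to 0 or took the other sign in at least 1 alternative. That of cell division went from -0.25 to 0.24 without Cx replicate 3, and the other 8 stayed between -0.17 and 0.39. Of the 51 genes, 18 were called with limma-voom, 48 with DESeq2 and 45 with RLE factors, which moved the median of all genes by 0.05. Depth limits the genes under 5 CPM, where 12 lower genes had 3 reads or fewer in each CC library.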
